A study of Mus musculus with 12 samples.

Results

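The genes described here are those used to mark alternative activation of mouse macrophages by interleukin 4 (IL-4) and interleukin 13 (IL-13), namely Arg1, Chil3, Retnla, Mrc1, Alox15, Mgl2 and Cd163, and the receptor chains of these cytokines, Il4ra, Il13ra1 and Il13ra2. They were taken by name, with every probe set annotated to them, which gave 17 probe sets of 45101 on the array and 10 genes of the 18194 named there. Of the 17 probe sets, 16 reached an intensity of 16 in at least 3 of the 12 arrays and were tested, and all 10 genes had at least 1 tested probe set. A single probe set of the 17, shared by Chil3 and the closely related Chil4, cannot be assigned to either gene.

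The study asked how the ear skin of mice without cannabinoid receptors responds in contact hypersensitivity, an allergic reaction to a chemical painted on the skin. There were 4 groups of 3 whole ears: dinitrofluorobenzene (DNFB) ears and control ears of Cnr1-/-/Cnr2-/- mice (KO DNFB and KO control), and DNFB ears and control ears of Cnr1+/+/Cnr2+/+ mice, whose strain is labelled C57BL/6J (WT DNFB and WT control; wild type). All 6 mice were females aged 8 to 10 weeks. All had been sensitized on the shaved abdomen with 50 µl of 0.2% DNFB, and each gave both ears. The right ear had received 0.3% DNFB (10 µl) on day 5, and the left had stayed untreated. The ears were taken 48 h after a later challenge whose day the labels do not state. A control ear is therefore an unpainted ear of a sensitized and challenged animal, not an ear of an untouched mouse. The labels do not give the strain background of the knockout mice, and the knockout is of the whole animal, so no cell type carries it alone.

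IL-4 and IL-13 are cytokines of type 2 immunity. Both signal through the IL-4 receptor alpha chain, which pairs with the common gamma chain for IL-4 or with IL-13 receptor alpha 1 for either cytokine. The Janus kinases bound to these chains activate the transcription factor STAT6, which in mouse macrophages turns on genes such as Arg1, Chil3 and Retnla. Macrophages in this state are known for tissue repair and for their part in allergy and worm infection. In skin, several of these genes are also used by cells other than macrophages.

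The arrays resembled each other closely, with correlations of 0.957 to 0.971 within groups and 0.868 to 0.966 between groups over the tested probe sets. Array medians lay between 24.7 and 30.1, on the linear scale on which intensities are given throughout. The probe sets of Cnr1 (4.88 to 19.8 over all 12 arrays for the brighter one) and Cnr2 were too close to background to check the deletion. Cnr2 read 28.6 to 39.4 in KO DNFB ears and 15.9 to 28.1 in WT DNFB ears, and 9.85 to 21.3 in KO control ears and 7.84 to 18.1 in WT control ears. The Cnr2 probe set was thus not lower in the knockout, and the files do not say whether it lies in the deleted part. The ratio of the 3' to the 5' Actb probe sets, a sign of RNA quality, averaged 0.420 ± 0.005 on the log2 scale in KO DNFB ears, 0.483 ± 0.020 in KO control ears, 0.524 ± 0.083 in WT DNFB ears and 0.655 ± 0.068 in WT control ears (SD, n = 3 each). The same ratio for Gapdh averaged -0.32 ± 0.057 in KO DNFB ears and -0.38 ± 0.056 in KO control ears. It averaged -0.346 ± 0.026 in WT DNFB ears and -0.396 ± 0.082 in WT control ears (SD, n = 3 each). The part of RNA quality in the differences between groups was not tested.

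Most of the 10 genes changed in the painted ear of both genotypes, and they did not change as a block. Arg1, Chil3, Mrc1, Alox15, Il4ra and Il13ra2 rose in both genotypes, and Mgl2 fell in both. Il13ra1 rose in both by some of its probe sets, and by its brightest one in the wild type only. Retnla and Cd163 were called lower in the wild type only, although Retnla read lower in the painted ear of all 6 mice. Of the 16 tested probe sets, 11 were higher and 1 lower in KO DNFB than in KO control ears, and 12 were higher and 3 lower in WT DNFB than in WT control ears (limma, adjusted p below 0.05). Among all probe sets tested, 17.0% were higher and 22.0% lower in the knockout response, and 15.2% were higher and 22.8% lower in the wild-type response. With each gene counted once by its brightest probe set, 6 genes rose and 1 fell in the knockout, and 7 rose and 3 fell in the wild type. The shares among all genes were 21.2% higher and 24.6% lower in the knockout, and 19.0% higher and 24.0% lower in the wild type. The median log2 fold change of the 10 genes was 1.28 in the knockout, against -0.06 over all genes, and 0.82 in the wild type, against -0.08 over all genes.

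**Figure D1:**
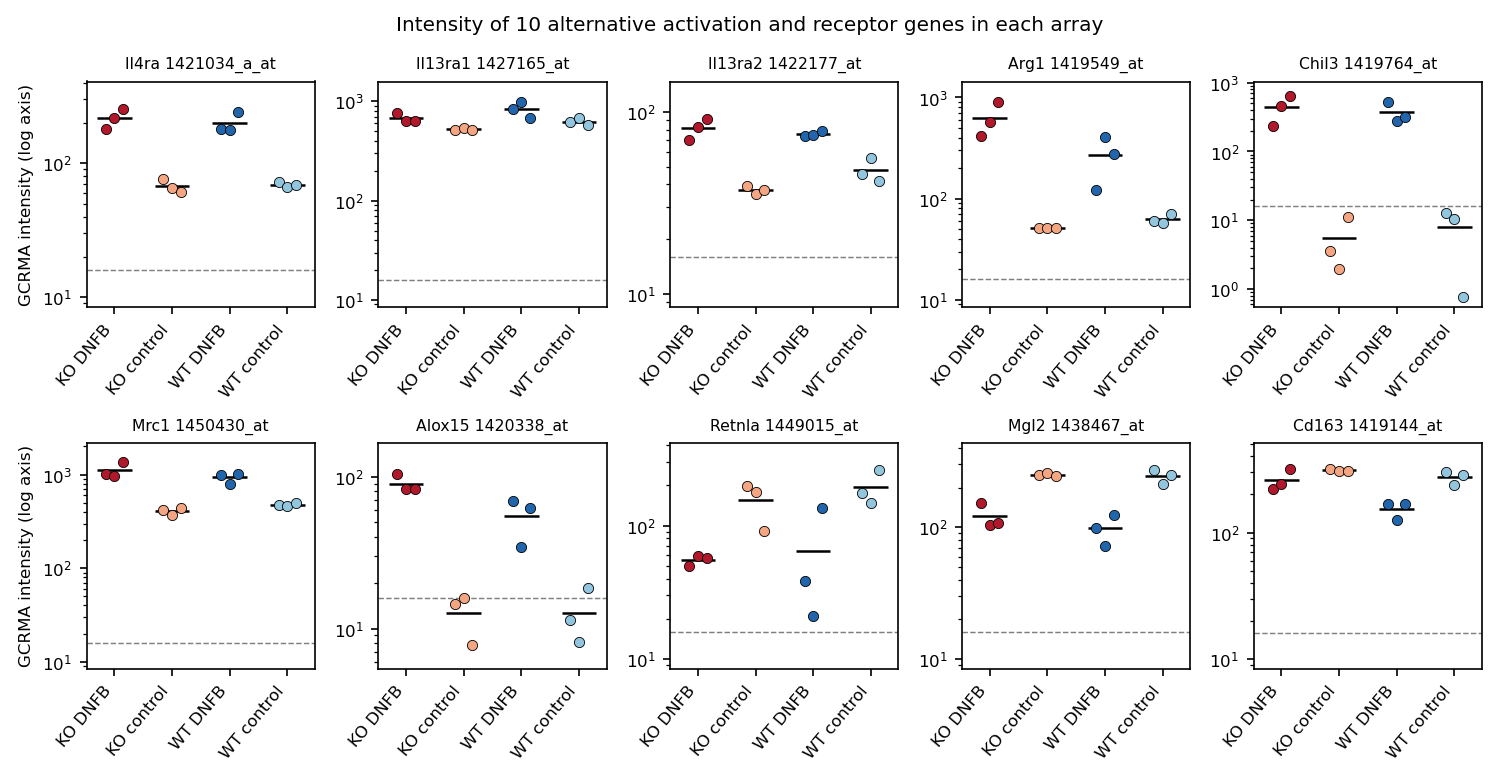
Intensity of the brightest probe set of each of the 10 genes in the 12 arrays (log axis), with KO DNFB, KO control, WT DNFB and WT control ears from left to right; each point is an ear, each bar the mean of 3, and the dashed line the intensity of 16. The painted ears of Il4ra, Il13ra1, Il13ra2, Arg1, Chil3, Mrc1 and Alox15 lie above the control ears of the same genotype, and those of Mgl2 and Retnla lie below. Those of Cd163 lie below in the wild type and overlap in the knockout.

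The receptor chain Il4ra, which binds IL-4 and is shared by both receptor types, rose in every mouse. Its brighter probe set read 179, 218 and 255 in KO DNFB ears and 76.2, 65.9 and 61.0 in KO control ears. In wild-type mice it read 181, 176 and 241 in DNFB ears and 72.9, 66.4 and 68.4 in control ears. The painted and unpainted ears did not overlap in either genotype. The log2 fold change was 1.67 ± 0.16 in the knockout (SE of the model, adjusted p = 3.53e-05) and 1.51 ± 0.16 in the wild type (adjusted p = 7.5e-05). A second Il4ra probe set gave 2.07 ± 0.20 and 1.78 ± 0.20 for the same responses and followed the first at r = 0.981 over the 12 arrays. The third was below 16 in every control ear and in 4 of the 6 painted ears and was not tested.

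Il13ra1, the chain that joins Il4ra to form the receptor for both cytokines, rose by smaller steps. Of its 5 probe sets 4 were bright, and each of these had higher values in the painted ear of all 6 mice. The probe set 1427164_at read 365, 383 and 326 in KO DNFB ears and 225, 196 and 220 in KO control ears, and 391, 449 and 372 in WT DNFB ears against 221, 212 and 209 in WT control ears. Neither genotype showed overlap between the ears. Its log2 fold change was 0.74 ± 0.11 in the knockout (adjusted p = 0.000397) and 0.91 ± 0.11 in the wild type (adjusted p = 0.000129).

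The other bright probe sets of Il13ra1 gave smaller log2 fold changes, from 0.37 to 0.59 in the knockout and from 0.41 to 0.83 in the wild type. The brightest of them, 1427165_at, read 757, 633 and 631 in KO DNFB ears, against 516, 535 and 512 in KO control ears, and did not pass the test in the knockout (log2 fold change 0.37 ± 0.14, adjusted p = 0.0588). It did so with the 2 ears of a mouse as a random block (adjusted p = 0.0488). In the wild type it passed (0.41 ± 0.14, adjusted p = 0.0406), but not without any one of WT control ears 1 and 3, WT DNFB ears 1 and 2 or any of the 3 KO control ears, with adjusted p of 0.0502 to 0.139. It passed in 10 of the 22 other settings tried. A further probe set, 1454783_at, passed in the knockout at 0.37 ± 0.11 (adjusted p = 0.0259), but not without KO control ear 1 (adjusted p = 0.0762), KO control ear 2 (0.0734) or KO DNFB ear 3 (0.0901). The fifth probe set, 1425625_at, was dim and moved with none of the others (r of -0.297 to -0.106). It read 12.4, 22.3 and 16.8 in KO DNFB ears, against 11.0, 8.71 and 17.5 in KO control ears. In the wild type it read 3.04, 26.8 and 1.30 in DNFB ears, against 16.4, 18.8 and 20.9 in control ears. The groups overlapped in both genotypes and neither response passed. Without WT DNFB ear 2 the wild-type log2 fold change of Il13ra1 by this probe set was -3.22 (limma, adjusted p = 0.000477). The remaining WT DNFB ears, at 3.04 and 1.30, lay below 16, so the size of this fall is not known. The geometric mean of the WT control ears was only 1.16-fold above 16.

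Il13ra2, which binds IL-13 tightly and is best known as a decoy receptor, rose in both genotypes. It read 69.9, 83.1 and 92 in KO DNFB ears and 39.2, 35.4 and 37.3 in KO control ears, and 73.4, 75.1 and 79.1 in WT DNFB ears against 45.4, 55.7 and 41.9 in WT control ears. No painted ear overlapped with a control ear. The log2 fold change was 1.12 ± 0.13 in the knockout (adjusted p = 0.000116) and 0.68 ± 0.13 in the wild type (adjusted p = 0.00264). With the washing run of the arrays as a block, the wild-type value of Il13ra2 was 0.63 (adjusted p = 0.067).

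The cytokines that feed these receptors were near or below the limit of the array. Il4 averaged 17.3 in KO DNFB ears and 7.27 in KO control ears, and 19.1 in WT DNFB ears and 3.32 in WT control ears. Il4 passed the test in the wild type, at least 1.18-fold higher in DNFB than in control ears (adjusted p = 0.00415), and not in the knockout (adjusted p = 0.13), while the difference between the responses did not pass (adjusted p = 0.824). Il13, with group means of 1.81 to 2.51, was not tested, nor were Il5, Il9 and Il25. The epithelial cytokines Il33 and Tslp, which act upstream of IL-4 and IL-13, rose in both genotypes, Il33 by 1.17 (log2) in the knockout and 1.23 in the wild type, and Tslp by 1.13 in the knockout and 1.64 in the wild type.

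Of 10 signalling genes tested downstream of the receptors, 4 rose in the knockout and 5 in the wild type, and none fell; the shares of all genes given above stand beside this and the later list counts. Stat6 itself gave a log2 fold change of 0.17 in the knockout (adjusted p = 0.179) and 0.16 in the wild type (adjusted p = 0.19). Jak1 gave 0.02 in the knockout and -0.05 in the wild type, and Tyk2 gave 0.22 in the knockout and 0.31 in the wild type, none past the threshold. Jak3 averaged 48.1 in KO DNFB ears and 30.5 in KO control ears (adjusted p = 0.0843) and rose in the wild type, at least 2.67-fold (adjusted p = 0.00174). The difference between its responses did not pass (adjusted p = 0.799). The feedback inhibitors Socs1 and Socs3, which other cytokines induce too, rose in both genotypes, Socs3 by 1.26 in the knockout and 1.97 in the wild type. Il2rg, the common gamma chain, was not analysed here.

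Among the effector genes, Arg1, the arginase that turns arginine into ornithine and urea, had the widest gap between genotypes among the bright probe sets. It read 419, 576 and 899 in KO DNFB ears and 51.2, 51.0 and 50.8 in KO control ears. In wild-type mice it read 123, 407 and 279 in DNFB ears and 60, 56.8 and 71.1 in control ears. All painted ears lay above all control ears, and the 3 KO DNFB ears lay above the 3 WT DNFB ears. The log2 fold change of Arg1 was 3.56 ± 0.39 in the knockout (adjusted p = 7.73e-05) and 1.95 ± 0.39 in the wild type (adjusted p = 0.00321). Within a mouse, the painted ear of Arg1 was 8.19-, 11.3- and 17.7-fold above the control ear in the 3 knockout mice, and 2.05-, 7.17- and 3.92-fold in the 3 wild-type mice. With the washing run as a block, which leaves WT DNFB ear 1 as the only wild-type DNFB ear set against control ears of its run, the wild-type log2 fold change of Arg1 was 0.98 (adjusted p = 0.113). Within single runs Arg1 differed by 3.56 (log2) between KO DNFB and KO control ears and by 0.98 between WT DNFB and WT control ears.

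Other genes that take up arginine or use ornithine moved less. Of 8 tested, 5 rose and none fell in the knockout, and 5 rose and 1 fell in the wild type. The second arginase, Arg2, rose by 0.95 in the knockout (adjusted p = 0.00303) and by 0.62 in the wild type (adjusted p = 0.026), and Odc1, which makes polyamines from ornithine, rose by 0.57 in the knockout and 0.63 in the wild type. Nos2, the inducible nitric oxide synthase that competes for arginine, was not tested, with group means of 0.778 to 1.96.

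Chil3, also called Ym1, encodes a secreted chitinase-like protein, which mouse neutrophils make as well as macrophages. It read 237, 457 and 650 in KO DNFB ears and 3.6, 1.97 and 11.0 in KO control ears. In wild-type mice it read 515, 280 and 312 in DNFB ears and 12.9, 10.3 and 0.771 in control ears. Every control ear was below 16 and every painted ear at 237 or more, so only bounds can be given: Chil3 was at least 25.8-fold higher in the painted ear of knockouts (adjusted p = 0.000543) and at least 22.2-fold in the wild type (adjusted p = 0.000872). The probe set shared by Chil3 and Chil4 was at least 14.9-fold higher in the knockout and at least 12.7-fold in the wild type, and followed the Chil3 probe set at r = 0.964. The single Chil4 probe set was not tested, with group means of 2.12 to 8.10.

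Alox15, the 12/15-lipoxygenase that oxidizes arachidonic and linoleic acid, read 104, 82.9 and 82.9 in KO DNFB ears and 14.5, 16 and 7.74 in KO control ears. In wild-type mice it read 69.4, 34.2 and 62.5 in DNFB ears and 11.3, 8.10 and 18.5 in control ears. The painted ears lay above the control ears in both genotypes, and the 3 KO DNFB ears above the 3 WT DNFB ears. Alox15 was at least 5.59-fold higher in the painted ear of knockouts (adjusted p = 0.000218) and at least 3.31-fold in the wild type (adjusted p = 0.00143). Of 7 related genes, other lipoxygenases and Alox5ap, 1 rose and 5 fell in the knockout, and 2 rose and 5 fell in the wild type. The one that rose in both was Alox5ap, the leukotriene pathway protein and not itself a lipoxygenase (1.67 in the knockout, 1.49 in the wild type). The other in the wild type was Alox8, which was dim, averaging 20.2 in WT DNFB ears and 3.51 in WT control ears (at least 1.2-fold). The epidermal lipoxygenase gene Aloxe3 fell (-1.62 in the knockout, -1.09 in the wild type).

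Mrc1, the mannose receptor of macrophages, read 1026, 961 and 1358 in KO DNFB ears and 421, 369 and 437 in KO control ears. In the wild type it read 998, 802 and 1008 in DNFB ears and 476, 462 and 491 in control ears. The ears did not overlap in either genotype. The log2 fold change of Mrc1 was 1.43 ± 0.15 in the knockout (adjusted p = 5.02e-05) and 0.97 ± 0.15 in the wild type (adjusted p = 0.000626).

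Retnla, the secreted protein RELM-alpha and one of the genes most used to mark alternative activation, did not follow Arg1 and Chil3. It read 50.0, 58.7 and 56.8 in KO DNFB ears and 199, 178 and 91.0 in KO control ears. In wild-type mice it read 38.7, 20.8 and 135 in DNFB ears and 174, 148 and 260 in control ears. The painted ear was the lower one in all 6 mice and the groups did not overlap. In the wild type Retnla fell (log2 fold change -1.98 ± 0.57, adjusted p = 0.0204). This call was lost without WT control ear 3 (-1.75, adjusted p = 0.0682), WT DNFB ear 1 (-1.83, adjusted p = 0.0618) or WT DNFB ear 2 (-1.38, adjusted p = 0.0652), and in a fit of wild-type arrays alone (adjusted p = 0.0523) or with the washing run as a block (-2.28, adjusted p = 0.0898). In the knockout the log2 fold change of Retnla was -1.42 ± 0.57 (adjusted p = 0.0735), and with mouse as a fixed block it passed (adjusted p = 0.0361). Without WT DNFB ear 2 or 3, which enter through the shared spread, the knockout value of Retnla had an adjusted p of 0.0341 or 0.00997.

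The promoters of Chil3 and Retnla are shown because both genes are textbook STAT6 targets and yet differed in direction here. RefSeq promoters (GRCm38.p6, 250 bases before the annotated start and 50 from it on) were found for 8 of the 10 genes. None was found for Arg1 and Alox15, which were therefore not searched. Chil3 and Retnla were the only 2 of the 8 with a STAT-type motif. The capitals mark TTCNNNNGAA or TTCNNNGAA, which read the same on both strands, and TATAAA, which was searched on both strands; none of the matches overlap.
Chil3, chr3:106167515-106167814, minus strand: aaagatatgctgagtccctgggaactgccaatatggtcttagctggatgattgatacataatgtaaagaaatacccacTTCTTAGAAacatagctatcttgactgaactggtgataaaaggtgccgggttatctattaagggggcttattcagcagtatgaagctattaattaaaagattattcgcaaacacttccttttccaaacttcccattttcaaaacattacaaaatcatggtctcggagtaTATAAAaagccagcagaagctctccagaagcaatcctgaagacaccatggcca
Retnla, chr16:48842359-48842658, plus strand: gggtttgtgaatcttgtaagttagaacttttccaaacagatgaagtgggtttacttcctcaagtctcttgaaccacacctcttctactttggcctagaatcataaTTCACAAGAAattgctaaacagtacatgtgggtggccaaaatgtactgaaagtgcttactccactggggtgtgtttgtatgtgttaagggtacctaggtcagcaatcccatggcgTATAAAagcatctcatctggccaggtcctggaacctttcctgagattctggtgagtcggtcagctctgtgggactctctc
The Retnla match has the 4-base spacer of the motif that STAT6 is known to prefer and begins at -145 from the start. The Chil3 match has a 3-base spacer and begins at -172. The TATAAA of Chil3 runs from -3 to 3, across the annotated start, and that of Retnla from -30 to -25. Among all 32851 promoters of the same length, 6.95% hold the motif with the 4-base spacer, 8.3% that with the 3-base spacer and 13.62% the TATAAA motif. The matches are letters in a window and not measured binding sites.

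Mgl2, a galactose-binding lectin of macrophages and dermal dendritic cells, fell in both genotypes. It read 153, 104 and 107 in KO DNFB ears and 248, 259 and 245 in KO control ears, and 99.4, 71.9 and 123 in WT DNFB ears against 273, 215 and 250 in WT control ears. No painted ear reached the level of a control ear. The log2 fold change of Mgl2 was -1.07 ± 0.20 in the knockout (adjusted p = 0.0023) and -1.35 ± 0.20 in the wild type (adjusted p = 0.000653). With the washing run as a block the knockout value of Mgl2 was -1.04 (adjusted p = 0.057). Clec10a, the neighbouring lectin gene also called Mgl1, rose instead, by 0.65 in the knockout (adjusted p = 0.00077) and 0.39 in the wild type (adjusted p = 0.0141).

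Cd163, the macrophage receptor for haemoglobin bound to haptoglobin, fell in the wild type. It read 220, 240 and 318 in KO DNFB ears and 318, 306 and 305 in KO control ears. In wild-type mice it read 169, 126 and 167 in DNFB ears and 303, 238 and 283 in control ears. The ears overlapped in the knockout and not in the wild type. The log2 fold change of Cd163 was -0.27 ± 0.17 in the knockout (adjusted p = 0.22) and -0.84 ± 0.17 in the wild type (adjusted p = 0.00292). With the washing run as a block the wild-type value of Cd163 was -0.69 (adjusted p = 0.0911). Of 5 other genes of haem and iron handling, 1 rose and 1 fell in each genotype: Hp, the haptoglobin gene, rose by 1.55 in the knockout and 1.83 in the wild type, and the iron exporter gene Slc40a1 fell by 0.78 in the knockout and by 0.57 in the wild type (log2).

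**Figure D2:**
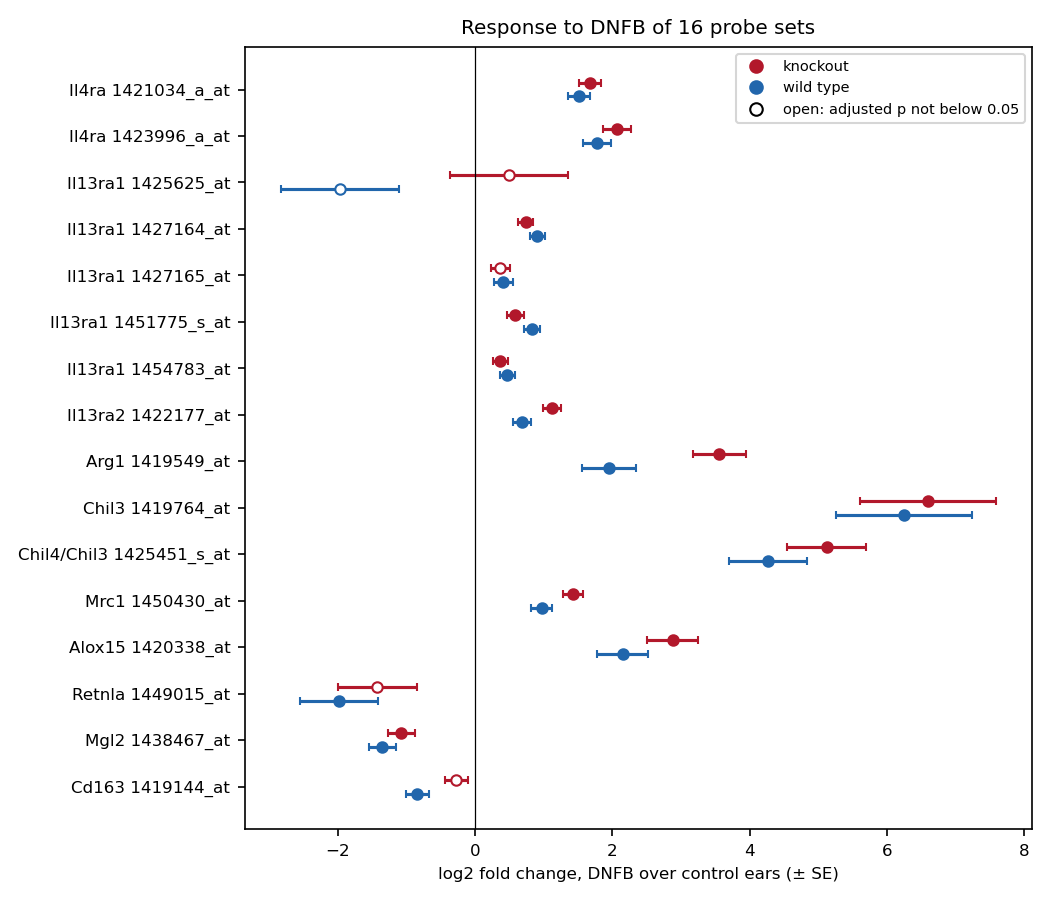
Log2 fold change of DNFB over control ears with its standard error for the 16 tested probe sets, knockout (red) above wild type (blue) in each row; filled points have an adjusted p below 0.05 and open points do not. Values of Chil3, Chil4/Chil3, Alox15 and Il13ra1 1425625_at are fitted with at least 1 group at a geometric mean below 16 and are not bounds. Arg1 lies at 3.56 in the knockout and 1.95 in the wild type, and Cd163 at -0.27 in the knockout and -0.84 in the wild type.

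A wider list of 22 tested genes linked to alternative activation changed in both directions. In the knockout 9 rose and 5 fell, and in the wild type 6 rose and 5 fell, with a median log2 fold change of 0.28 in the knockout and -0.11 in the wild type. The median over all genes was -0.06 in the knockout and -0.08 in the wild type, and against the gene shares given above the counts of the wild type lie near the background. Clec7a, the beta-glucan receptor Dectin-1, rose most among the bright ones, by 4.71 in the knockout and 4.30 in the wild type. Msr1, a scavenger receptor, rose by 2.90 in the knockout and 2.80 in the wild type, and Pdcd1lg2, the checkpoint ligand PD-L2, was at least 3.81-fold higher in the knockout and at least 2.28-fold in the wild type. Pparg, a nuclear receptor used by these macrophages and by fat and sebaceous cells, fell by 1.47 in the knockout and by 0.97 in the wild type. Ccl24, an eosinophil attractant, averaged 101 in KO DNFB ears and 33.1 in KO control ears (log2 fold change 1.63, adjusted p = 0.0048), and 31.2 in WT DNFB ears and 38.1 in WT control ears (-0.44, adjusted p = 0.356). The Ccl24 difference between KO DNFB and WT DNFB ears was 1.85 (adjusted p = 0.154), and that between the responses was 2.07 (adjusted p = 0.601).

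Markers of infiltrating cells moved with the same contrast. In whole ear tissue, more cells of a type and more RNA per cell cannot be told apart. Of 12 macrophage markers, 9 rose in each genotype, and their summed intensity was 8827 to 11080 in KO DNFB ears and 3700 to 4260 in KO control ears, and 7096 to 8661 in WT DNFB ears and 3494 to 3762 in WT control ears. The log2 fold changes of these 9 differed widely. They ran from Csf1r, at 0.85 in the knockout and 0.83 in the wild type, to Fcgr1, at 4.28 in the knockout and 3.85 in the wild type. Adgre1, which encodes F4/80, rose by 1.53 in the knockout and 1.41 in the wild type. For Mrc1 the same log2 fold changes were 1.43 in the knockout and 0.97 in the wild type. The 3 markers of tissue-resident macrophages (Mertk, Lyve1 and Folr2) did not pass in either genotype, with log2 fold changes of -0.35 to 0.29.

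Neutrophil markers rose too, 4 of 5 in the knockout and 5 of 5 in the wild type. Their summed intensity was 7389 to 11780 in KO DNFB ears and 86.3 to 702 in KO control ears, and 8998 to 12460 in WT DNFB ears and 115 to 292 in WT control ears. S100a8 and S100a9 made up most of these sums, so the sums follow these genes and are not a measure of neutrophil number. In KO DNFB ears they averaged 4720 and 4650, against 258 for Csf3r, 55.3 for Cxcr2 and 34.6 for Mmp8. In WT DNFB ears they averaged 5820 and 5190, against 199, 45.9 and 24.9 for the same genes. Eosinophils, which carry Alox15 in mice, left little signal: Epx, Prg2, Prg3 and Il5ra had group means of 0.795 to 12.8 and were not tested. The summed intensity of Siglecf and Ccr3 was 37.0 to 50.5 in KO DNFB ears and 5.49 to 17.1 in KO control ears, and 16.3 to 38.0 in WT DNFB ears and 4.05 to 8.74 in WT control ears. Both genes were below 16 in every control ear and entered the test only through painted ears. The order of painted over control ears in these sums was therefore built in. Of their responses, only that of Siglecf in the wild type passed (limma, adjusted p = 0.00785). The part of macrophages, neutrophils and eosinophils in the responses of the 10 genes was not tested.

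**Figure D3:**
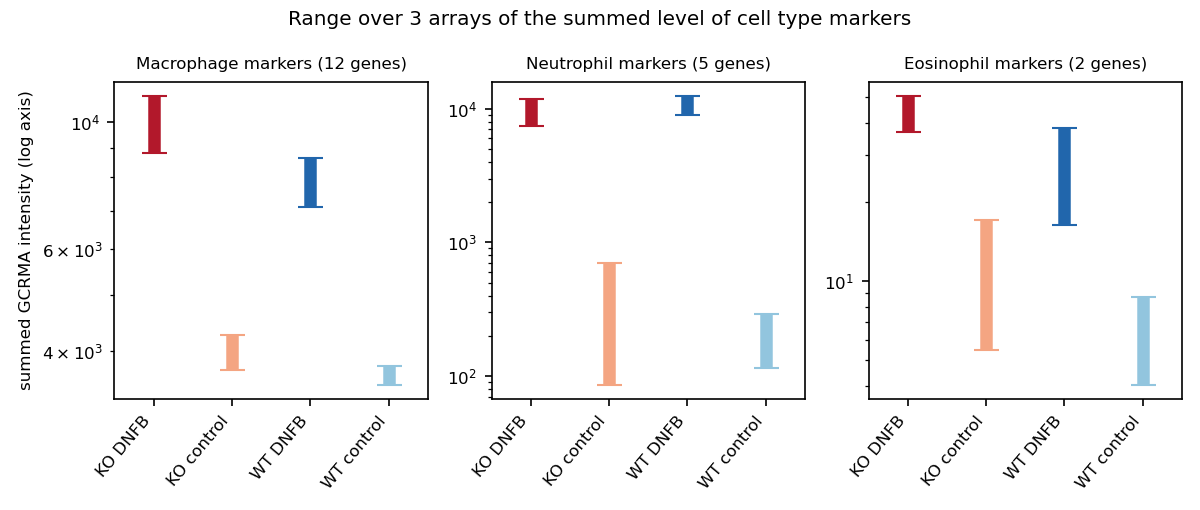
Range over the 3 arrays of each group of the summed intensity (log axis) of 12 macrophage, 5 neutrophil and 2 eosinophil markers, with KO DNFB, KO control, WT DNFB and WT control ears from left to right. Within each genotype painted ears lie above control ears for macrophage and neutrophil markers. The eosinophil markers shown entered only through painted ears, so their order was built in. The macrophage sums of KO DNFB ears (8827 to 11080) lie above those of WT DNFB ears (7096 to 8661). None of the 12 macrophage markers passed between these groups. Most of each neutrophil sum is S100a8 and S100a9, and most of each macrophage sum is Csf1r, C1qa, C1qb and C1qc.

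Between genotypes, no probe set of the 10 genes passed the test in painted ears, where 0.119% of all probe sets and 0.0672% of all genes did. At an unadjusted p below 0.05 there were 4 of 16 (Arg1, Cd163 and the Il13ra1 probe sets 1451775_s_at and 1454783_at), where 9.39% of all probe sets were that low (limma). The 2 Il13ra1 probe sets followed each other at r = 0.821, so they are not separate results. With each gene counted once by its brightest probe set there were 2 of 10, but the share of all genes at this cut was not computed. Arg1 was the widest apart among the bright ones, with the painted-ear values given above averaging 631 ± 245 in KO DNFB ears and 270 ± 142 in WT DNFB ears (SD, n = 3 each), a log2 difference of 1.32 ± 0.39 (unadjusted p = 0.00679, adjusted p = 0.363). Leaving out 1 ear at a time gave 0.83 to 1.7. Cd163 averaged 259 ± 52.0 in KO DNFB ears and 154 ± 24.6 in WT DNFB ears (SD, n = 3 each), a difference of 0.75 ± 0.17 (adjusted p = 0.215). It was called when the variance was moderated with a trend and robustly (adjusted p = 0.0285). Alox15 differed by 0.76 ± 0.37 (adjusted p = 0.569), and the Il13ra1 probe set 1454783_at, at 480, 445 and 546 in KO DNFB ears against 671, 657 and 562 in WT DNFB ears, differed by -0.36 ± 0.11 (adjusted p = 0.372).

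KO DNFB and WT DNFB ears did not overlap for 4 of the 16 probe sets, with Arg1, Alox15 and Cd163 higher and Il13ra1 1454783_at lower in the knockout. Among all probe sets tested, 7.02% were higher without overlap and 8.05% lower. The other genes were close: the log2 difference was 0.24 ± 0.15 for Mrc1, 0.32 ± 0.20 for Mgl2, 0.12 ± 0.16 for the brighter Il4ra probe set, 0.10 ± 0.13 for Il13ra2, 0.22 ± 0.99 for Chil3 and 0.21 ± 0.57 for Retnla. The differences of Il4ra, Il13ra2, Chil3 and Retnla were smaller than their standard errors. None of the 12 macrophage markers passed between KO DNFB and WT DNFB ears, although their sums did not overlap. Most of each sum came from the bright genes Csf1r, C1qa, C1qb and C1qc. The median log2 difference of the 12 markers was 0.22, against 0.23 for the 10 genes and 0.02 for all genes.

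**Figure D4:**
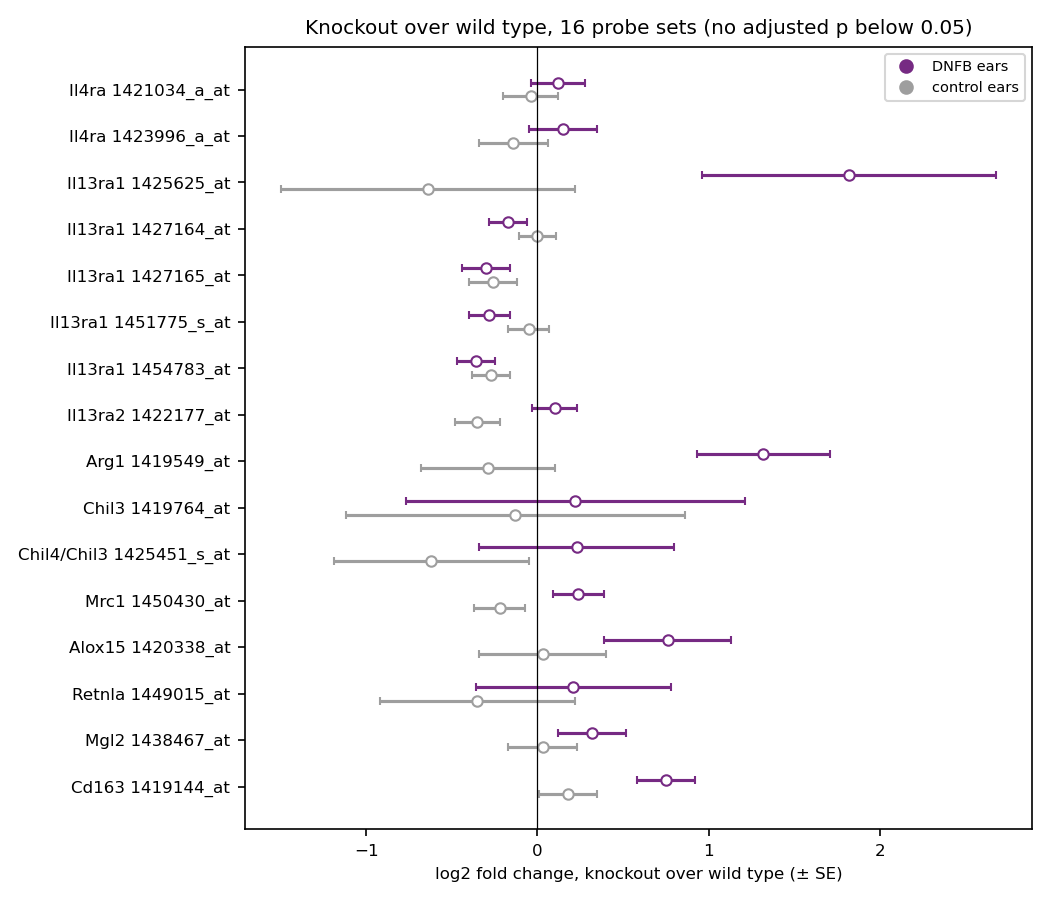
Log2 difference between knockout and wild type with its standard error for the 16 tested probe sets, in DNFB ears (purple) and control ears (grey). Chil3, Chil4/Chil3, Alox15 and Il13ra1 1425625_at had group means below 16 in at least 1 kind of ear. No value has an adjusted p below 0.05; Arg1 lies at 1.32 in DNFB ears and -0.29 in control ears, and Cd163 at 0.75 in DNFB ears and 0.18 in control ears.

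In control ears none of the 16 probe sets passed either, against 0.149% of all probe sets and 0.149% of all genes, and 2 of 16 had an unadjusted p below 0.05, as had 11.8% of all probe sets (limma). Between genotypes, 1 was higher and 5 were lower in the knockout without overlap, where 7.62% of all probe sets were higher and 10.7% lower without overlap. The log2 difference between KO control and WT control ears was -0.29 ± 0.39 for Arg1, -0.22 ± 0.15 for Mrc1, -0.35 ± 0.13 for Il13ra2 and 0.18 ± 0.17 for Cd163. For Il13ra1 it was -0.26 ± 0.14 by 1427165_at and -0.27 ± 0.11 by 1454783_at. Arg1 read 51.2, 51.0 and 50.8 in KO control ears, against 60, 56.8 and 71.1 in WT control ears, so its ordering between genotypes in control ears was the opposite of that in painted ears.

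The difference between the 2 responses was tested directly as an interaction. No member probe set passed, where 0.00339% of all probe sets and 0.00747% of all genes did, and 4 of 16 had an unadjusted p below 0.05, as had 6.22% of all probe sets (limma). The knockout response of Arg1 exceeded the wild-type response by 1.61 ± 0.55 on the log2 scale (unadjusted p = 0.0151, adjusted p = 0.711). The difference was 0.47 ± 0.21 for Mrc1 (adjusted p = 0.798), 0.44 ± 0.19 for Il13ra2 (adjusted p = 0.784), 0.57 ± 0.23 for Cd163 (adjusted p = 0.776) and 0.73 ± 0.53 for Alox15 (adjusted p = 0.886). For Arg1, Mrc1 and Cd163 the 3 knockout mice all had a larger DNFB-over-control ratio than the 3 wild-type mice, and for Il13ra1 1451775_s_at all had a smaller one. Among all probe sets tested, 6.62% had larger and 5.59% smaller ratios in the knockout without overlap. The ratios of Il13ra1 1451775_s_at were 1.62, 1.59 and 1.34 in knockout mice and 1.67, 2.02 and 1.65 in wild-type mice. Mrc1 ratios were 2.44, 2.60 and 3.11 in knockout mice and 2.10, 1.74 and 2.05 in wild-type mice. Cd163 ratios were 0.691, 0.786 and 1.04 in knockout mice and 0.559, 0.527 and 0.591 in wild-type mice. The passing of Retnla and Cd163 in the wild type alone is thus not a shown difference between genotypes.

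By the hybridization times in the instrument records, the arrays fell into 3 runs, called washing runs here. These runs were inferred and are not named in the labels, and none holds the same kind of ear of both genotypes. The 3 WT control ears shared a run with WT DNFB ear 1, WT DNFB ears 2 and 3 with KO control ears 1 and 2, and KO control ear 3 with the 3 KO DNFB ears. In painted ears and in control ears, genotype and washing run cannot be told apart.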

How the data were processed

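RNA of 12 whole ears was measured on Affymetrix Mouse Genome 430 2.0 arrays. The authors' deposited values are 1 linear intensity per probe set and array, made with GCRMA per the submitters' processing notes; version and settings are not given in the sources used here. Instrument records were used for the washing runs and nothing else. The runs were inferred from the hybridization times, with a new run after a gap of over 30 minutes.

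Log2 intensities without a pseudocount were fitted with limma 3.58.1 in R 4.3.3 (lmFit, eBayes, 1 coefficient per group, 12 arrays). Probe sets at 16 or more in at least 3 arrays were tested, without Affymetrix controls (29460 of 45101), with Benjamini-Hochberg adjustment over them and a threshold of 0.05. A gene is its brightest tested single-symbol probe set (13383 genes). Where the geometric mean of a group was below 16, the fold is given as at least the fold against 16, and other log2 values of such genes are fitted ones. Names come from the platform annotation; 34754 of 34958 single-symbol probe sets matched RefSeq by Entrez identifier. The number of arrays limits the precision.

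The labels pair the ears by animal without stating a paired test. Mouse therefore served as a block in alternatives only; deviations of the 2 ears from their group means correlated at -0.004 to 0.08. The other alternatives were the filter, the log scale, the variance moderation, the scaling between arrays, the arrays in the fit, the washing run, 1 probe set per gene and leaving out each array. All 10 genes and all their probe sets are named, and of the IL-4 pathway Il4, Il13, Stat6, Jak1, Jak3, Tyk2 and Il2rg. Other genes of the lists were named after their values were seen, and they are not always those with the largest changes. The 10 genes and the lists (macrophage, neutrophil, eosinophil, dendritic cell, mast cell and basophil, keratinocyte, fibroblast and type 2 lymphocyte markers, and the pathway lists) were chosen with earlier results of these data known. The labels give separate mice, so the spread is between animals.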

Additional observations from a re-analysis of the deposited data

How the results depend on the processing

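The count of member probe sets called was 12 for the knockout response and 15 for that of the wild type. Among all 29460 probe sets tested, 11501 were called in the knockout and 11211 in the wild type. With the washing run as a block the member count was 10 (9 higher, 1 lower) in the wild type. In the knockout it was 9, all higher. The calls among all probe sets then fell to 5624 in the wild type and 5791 in the knockout. With 1 probe set per gene the member count was 7 of 10 genes in the knockout and 10 of 10 in the wild type, since fewer probe sets enter. Leaving out 1 array gave 13 to 15 in the wild type. In painted ears between genotypes the count was 0, and 1 with trend and robust moderation, which was Cd163 (adjusted p = 0.0285). Among all probe sets 35 were called there in the main fit and 92 with that moderation. Leaving out 1 array gave 0 to 1 member probe sets in this comparison. The 1 was Il13ra1 1425625_at without WT DNFB ear 2, where 22 of all 29309 probe sets were called. Blocking on the mouse, as the paired design allows, gave 13 in the knockout and 15 in the wild type. It changed no call other than those of Retnla and Il13ra1 1427165_at in the knockout given above.

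Values past no threshold changed sign in 3 results. The knockout response of Il13ra1 1425625_at was -0.07 with the washing run as a block. Between genotypes in painted ears, Chil3 was -1.56 with that block and -0.11 to 0.62 without 1 array, and Retnla -0.39 to 0.96 without 1 array. With the run as a block the knockout response of Il13ra1 also lost 1451775_s_at (0.61) and 1454783_at (0.24). The causes were not tested. Chil3, Alox15 in control ears, Il13ra1 1425625_at, Il4 and the eosinophil markers lie near or below an intensity of 16, where the sizes of changes depend on background correction.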

Other observations

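Markers of resident skin cells were also counted. Of 4 keratinocyte markers, 3 rose in the knockout and 1 in the wild type, among them Krt1, by 0.96 in the knockout and 1.35 in the wild type (log2). Of 4 fibroblast markers, 3 fell in each genotype (Col1a1, Col1a2 and Dcn). Of 7 dendritic cell markers, 2 rose and 1 fell in each genotype. Cd207, which encodes langerin of Langerhans cells, fell by 2.73 in the knockout and fell by 2.68 in the wild type. Of 6 mast cell and basophil markers, 2 rose in the knockout, while 1 rose and 1 fell in the wild type. Mcpt8, a basophil protease gene, was at least 5.85-fold higher in the painted ear of knockouts and at least 6.32-fold in the wild type. Of the type 2 lymphocyte markers 2 were tested; none passed in the knockout, and Il17rb fell by 1.27 in the wild type.

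For each of the 10 genes, the genes whose log2 intensity followed it most closely over the 12 arrays were found. These correlations share the contrast between painted and control ears and are a description. Arg1 was followed by Saa1 (r = 0.976), an acute-phase gene, Mt2 (0.972) and Bub3 (0.968). Chil3 was followed by Ptpn22 (0.985), Slfn4 (0.984) and Gbp3 (0.982), and Alox15 by Cd300lb (0.979). Mrc1 was followed by Syk (0.988), Ddah1 (0.987) and Apobr (0.986), and Il4ra by Cytip (0.996), Gda (0.993) and Upp1 (0.992). Il13ra2 was followed by Hnrnpm (0.989) and Mgl2 by Gask1b (0.988), while the closest genes to Retnla (Cep120, 0.94), Cd163 (Msra, 0.953) and Il13ra1 (Zdhhc2, 0.917) followed less closely. Among the 10 genes, Mrc1 and Il4ra ran most together (r = 0.97) and Cd163 and Il13ra1, as well as Mgl2 and Il13ra2, most against each other (r = -0.9 for both pairs).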
